A study of Homo sapiens with 15 samples.

Results

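Gene expression in HEK293 cells depleted of ZC3H7A and ZC3H7B was compared with that in parental HEK293 cells by poly(A) RNA-seq. HEK293 is an established line derived from human embryonic kidney. The comparison used 6 of the 15 libraries of the series: 3 labelled Parental and 3 labelled ZC3H7A/B-DD (DD, double depletion). Parental cells carried a control shRNA and were otherwise wild type, and DD cells combined a ZC3H7A knockout with an shRNA against ZC3H7B. Both groups were kept in puromycin at 5 µg/mL, which selects for the shRNA, until 2 passages before collection, so they shared the vector, the selection and the release from it. The remaining 9 libraries came from Flp-In T-REx 293 cells in which a Flag/HA tag alone, Flag/HA-ZC3H7A or Flag/HA-ZC3H7B was switched on by doxycycline (1 µg/mL, 24 h), with 3 libraries each, and they were used only to set fold changes side by side. The labels do not say whether DD is a single knockout clone, which exon was cut, or whether the 3 libraries of a group are separate cultures, so p-values measure the spread between these libraries, which may be technical. All 18494 of the 55773 genes in the table with a normalized read count of at least 10 in at least 3 of the 6 libraries were tested, on log2 of the value plus 1.

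ZC3H7A and ZC3H7B are paralogous RNA-binding proteins of the CCCH zinc-finger family. Proteins of this family bind messenger RNA and can change how long it lasts and how well it is translated, often by recruiting the GIGYF and 4EHP repressors of cap-dependent translation or the CCR4-NOT deadenylase. The title of the study asks about regulation that depends on codon use, that is, on which of several synonymous codons a coding sequence uses. Synonymous codons differ mostly at the third base, and coding sequences range from mostly A or T to mostly G or C there. Programmes of growing cells that respond to translation include the integrated stress response, in which ATF4 activates genes for amino acid supply, and the genes of the ribosome itself.

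The paralogs themselves lie near opposite ends of that codon scale. The first 30 codons of each coding sequence are shown for that reason, from GENCODE 29, with the third base of a codon in capitals where it is G or C.
ZC3H7A: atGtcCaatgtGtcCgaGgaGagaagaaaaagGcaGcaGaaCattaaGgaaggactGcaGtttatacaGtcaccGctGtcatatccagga
ZC3H7B: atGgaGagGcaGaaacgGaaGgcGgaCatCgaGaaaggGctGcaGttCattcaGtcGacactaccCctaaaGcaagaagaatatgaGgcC
Of these 30 codons, 16 ended in G or C in ZC3H7A and 20 in ZC3H7B. Over the whole coding sequence the share was 35.8% of 971 codons in ZC3H7A and 81.0% of 977 codons in ZC3H7B.

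The libraries held 12.2 to 15.5 M reads. The biological coefficient of variation within a group, edgeR's estimate of the spread between libraries beyond counting error, was 10.4% in Parental and 4.82% in DD. The first principal component held 56.0% of the variance and separated the groups. The second held 13.1% and set Parental replicate 3 apart from the other libraries. The median absolute log2 difference between libraries was 0.107 between Parental replicates 1 and 2, 0.156 to 0.172 between either and replicate 3, 0.0912 to 0.104 within DD and 0.208 to 0.263 between groups. Across genes, the log2 difference of Parental replicate 3 from replicates 1 and 2 had a Spearman rho of 0.302 with the G+C share of the transcript. Several results that moved with that library are therefore given with and without it. The summed normalized count of 13 markers of the HEK293 background ran from 50677 to 56372 in Parental and from 53481 to 57746 in DD. The members behind this sum did not stay level: of 11 tested, 3 were called higher and 5 lower. VIM, the largest of them, was 25989 to 29615 in Parental and 32546 to 35602 in DD. KRT8 was 2416 to 3436 in Parental and 367 to 500 in DD, and PAX2 240 to 281 and 129 to 187. The fibroblast markers summed to 246 to 357 against 286 to 315, with COL1A2 at 0 throughout. Of 8 leukocyte markers, CD3E, NKG7 and PTPRC were at 0 in all 6 libraries, and the sum was 39.97 to 61.0 in Parental against 89.0 to 116 in DD.

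ZC3H7B transcript was low in every DD library and ZC3H7A transcript was not. The normalized read count of ZC3H7B was 5948, 6484 and 6958 in Parental and 999.8, 1168 and 1083 in DD. All DD libraries lay far below all Parental libraries (log2 fold change -2.58, SE 0.0817, adjusted p = 4.19e-09), a 5.97-fold lower mean. The count of ZC3H7A was 1585, 1528 and 1684 in Parental and 1639.9, 1561 and 1771 in DD, and the groups overlapped (log2 fold change 0.05, SE 0.0770, adjusted p = 0.666). A gene-level count includes reads outside an edited site and does not show whether protein was made, so it leaves the knockout unchecked, and the directions below are those of the libraries labelled DD. The genes are on chromosome 16 (ZC3H7A, ENSG00000122299) and chromosome 22 (ZC3H7B, ENSG00000100403).

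**Figure D1:**
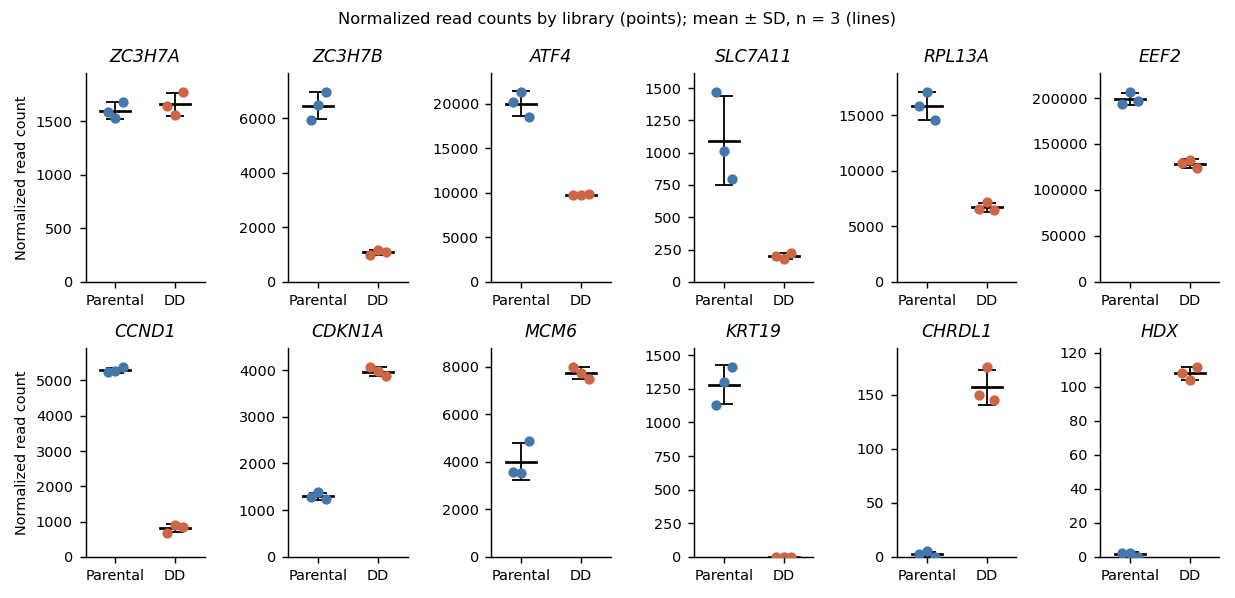
Normalized read counts (y axes, from 0) of 12 genes in the 3 Parental and 3 DD libraries. Points are libraries, and lines are the mean ± SD. ZC3H7B and CCND1 fell 5.97-fold and 6.50-fold, the counts of ZC3H7A overlapped, and KRT19 had no read in DD.

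The depletion comparison called 2716 genes higher and 2732 lower in DD (limma, Benjamini-Hochberg adjusted p under 0.05, two-sided), so 29.5% of tested genes were called, 14.7% higher and 14.8% lower. Changes of 2-fold or more were fewer, with 307 higher (1.66%) and 483 lower (2.61%). The DD and Parental libraries did not overlap in 43.0% of genes. The median log2 fold change over all tested genes was 0.01. The counts depended on the libraries in the fit: without DD replicate 1, 1561 genes were higher and 2002 lower, and without Parental replicate 3, 3564 were higher and 3239 lower. A fit on all 15 libraries, whose groups then share 1 estimate of the spread, called 3969 higher and 3657 lower.

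The largest falls were of transcripts that were abundant in Parental and close to absent in DD. A mean of at least 100 in Parental and under 5 in DD was found for 12 genes, and the reverse for 2. KRT19, a simple-epithelial keratin, was 1130.1, 1304 and 1412 in Parental and 0, 0 and 0 in DD. No read was found in DD, so its fall was at least 609-fold, taking 3 reads in the 3 DD libraries together as the upper limit. CDH3, the adhesion protein P-cadherin, had counts of 655, 712 and 619 in Parental and 0, 2.37 and 0 in DD, a 941-fold fall by the ratio of reads (95% exact binomial interval 168 to 37191, counting error only, as for the intervals below). Likewise near 0 in DD were RIN3, a Rab5 exchange factor (277-fold, 76.2 to 2292), the microfibril protein MFAP2 (457-fold, 81.6 to 18103) and OAS3, an interferon-induced synthetase (365-fold, 65.1 to 14465). Both B3GALNT1, a glycosyltransferase, and ERVMER34-1, an endogenous retroviral envelope gene, had no read in DD, for falls of at least 93.2 and 76.6-fold. The long intergenic RNA LINC00958 fell 300.1-fold (53.4 to 11897), the reductase CYB561 186-fold (33.0 to 7404) and PTGR1, which reduces prostaglandins, 146-fold (25.8 to 5820.0). Zinc-finger genes were also among them, with ZNF43 64.6-fold (27.4 to 200.3) and ZNF22 49.8-fold lower (16.7 to 245). CGREF1, a secreted growth regulator, fell 44.2-fold (22.1 to 103). CRABP2, which carries retinoic acid in the cell, kept some expression, at 1749.6, 2081 and 1671 in Parental and 54.9, 52.1 and 90.6 in DD, 27.8-fold lower on the means. Finally, the histone gene HIST1H2AL, whose near-identical copies can share reads, was 28.5-fold lower (17.9 to 48.6). MFAP2, on chromosome 1, and OAS3, on chromosome 12, lie in runs of neighbouring genes that shifted down, described with the genome order below. Some of these genes also came close to absent in a group of the overexpression libraries. Means with the tag alone, ZC3H7A and ZC3H7B were 420, 20.1 and 372 for CDH3 and 326, 0.214 and 247 for MFAP2. They were 4.29, 297 and 4.49 for CYB561 and 0.712, 268 and 0.347 for ZNF22. Others stayed expressed in all these groups, such as B3GALNT1 (473, 352 and 308) and PTGR1 (213, 173 and 109).

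Among the 15 largest rises, 5 lay on the X chromosome, which held 3.71% of the tested genes with a known position. Of the 60 placed genes that were higher by at least 4-fold with no overlap between groups, 6 were on X. CHRDL1, a secreted BMP antagonist, was 2.22, 4.93 and 0 in Parental and 149.6, 175 and 145 in DD, and HDX, a homeobox gene, was 2.22, 2.47 and 0 in Parental and 108, 104 and 112 in DD. Both were thus at or near 0 in every Parental library and above 100 in every DD library, with ratios of 68.3 (23.1 to 334) and 71.1 (19.3 to 592). Their means with the tag alone, ZC3H7A and ZC3H7B were 1.88, 14.5 and 1.05 for CHRDL1 and 0.308, 79.1 and 0 for HDX. The cancer-testis gene MAGEC1 was 6.66, 7.40 and 8.71 in Parental and 199, 171 and 164 in DD, and TMEM35, a neuronal membrane protein that assists receptor assembly, was 15.5, 24.7 and 8.71 in Parental and 233, 189.5 and 244 in DD. The rises off the X chromosome included genes of neurons. SYT1, the calcium sensor of synaptic vesicles, was 6.66, 4.93 and 4.36 in Parental and 123, 109 and 112 in DD (log2 fold change 4.21, SE 0.314, adjusted p = 2.83e-06). Postsynaptic scaffold DLGAP1 had a log2 fold change of 3.46 (SE 0.187, adjusted p = 3.07e-07) and the complexin CPLX2 one of 2.98 (SE 0.226, adjusted p = 3.20e-06). The matricellular protein SPARC rose from 144, 168 and 137 to 1057, 1054 and 956, about 6.83-fold. Others were the exchanger SLC24A2 (3.50), the membrane protease MMP24 (2.30), the monocarboxylate transporter SLC16A7 (2.29) and the actin-associated FAM101A (2.48, all log2 fold changes). TMEM35 lies in a run of X-linked neighbours that shifted up, whereas SYT1 and SLC16A7 rose within the part of chromosome 12 that shifted down.

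Most transcripts of the integrated stress response were lower in DD. Of 39 tested members, 30 fell and 2 rose, with a median log2 fold change of -0.57 against 0.01 over all genes and 14.8% of genes lower. ATF4 itself, the transcription factor at the centre of the response, was 20234, 21288 and 18507 in Parental and 9773, 9707 and 9854 in DD. The DD libraries lay close together and below every Parental library (log2 fold change -1.03, SE 0.0674, adjusted p = 9.79e-07). DDIT3, also called CHOP, is an ATF4 partner and was 399.7, 303 and 318 in Parental and 108, 104 and 90.6 in DD (log2 fold change -1.74, SE 0.153, adjusted p = 9.56e-06). It lies in the shifted part of chromosome 12. Of the 8 transcription factors in the list 5 fell and 1 rose, of the 19 genes of amino acid supply 15 fell and 1 rose, and of the other 12 targets 10 fell. In amino acid supply, the proline enzyme PYCR1 was 2047, 2159.6 and 1980.3 in Parental and 869, 919 and 893 in DD (log2 fold change -1.20, SE 0.0733, adjusted p = 5.91e-07). The asparagine synthetase ASNS had a log2 fold change of -0.83 (SE 0.0789, adjusted p = 1.64e-05) and the mitochondrial folate enzyme MTHFD2 of -0.68 (SE 0.0717, adjusted p = 3.51e-05). SLC7A11, the cystine importer, was 1468, 1011 and 797 in Parental and 197, 178 and 223 in DD. Its Parental libraries spread widely, yet the groups did not overlap (log2 fold change -2.41, SE 0.184, adjusted p = 3.27e-06). Among the other targets, the secreted hormone STC2 was 3344, 3252 and 2934 in Parental and 960.1, 1104 and 963 in DD (log2 fold change -1.65, SE 0.0830, adjusted p = 1.78e-07), and CHAC1, which degrades glutathione, was 229, 177 and 205 in Parental and 102, 92.4 and 73.7 in DD (log2 fold change -1.18, SE 0.177, adjusted p = 4.58e-04). The pseudokinase TRIB3 and the leucine sensor SESN2 fell by 0.97 and 0.84 on the log2 scale, SESN2 in the shifted start of chromosome 1. Outside the runs of neighbouring genes that shifted together (described with the genome order below), 26 of 34 members fell and 2 rose, with a median of -0.53.

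A DNA element bound by ATF4 with C/EBP partners is known in promoters of this response. It was searched as TGATGNAA on both strands in RefSeq promoters of GRCh38.p14, from 250 bases before the start of transcription to 50 after, and overlap with other motifs was not considered. It lay in a promoter of 11 of the 32 list members in the promoter table (34.4%) and of 4.46% of all 27305 genes there. The matches in 5 members that fell are shown with the 11 bases on each side, 5′ to 3′ along the gene's strand, with the element in capitals.
CHAC1 (chr15:40953251-40953280, plus strand): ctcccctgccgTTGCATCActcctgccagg
ASNS (chr7:97872458-97872487, minus strand): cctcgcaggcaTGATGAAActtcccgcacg
CEBPG (chr19:33374060-33374089, plus strand): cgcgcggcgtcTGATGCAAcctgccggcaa
SLC1A5 (chr19:46784893-46784922, minus strand): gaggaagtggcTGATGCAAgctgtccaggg
SLC7A1 (chr13:29595663-29595692, minus strand): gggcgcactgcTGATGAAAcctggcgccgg
In CHAC1 the element reads on the opposite strand. It begins 209 bases before the RefSeq start in CHAC1, 68 in ASNS, 42 in CEBPG and 97 in SLC1A5, and 7 bases after it in SLC7A1. Members with and without a match in this window both fell in most cases: 8 of 11 with it, with a median log2 fold change of -0.31, and 16 of 21 without it, with a median of -0.60.

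Amino acid carriers and aminoacyl-tRNA synthetases were lower as groups. The carriers bring amino acids across membranes, and the synthetases load them onto tRNA. Of 25 carriers tested, 14 fell and 1 rose, with a median of -0.30. Some carriers, among them SLC7A1 and SLC7A5, are also in the list of the integrated stress response, so the lists are not separate. SLC7A1, an importer of arginine and lysine, was 11783, 11643 and 11267 in Parental and 5971, 5639 and 5729 in DD (log2 fold change -1.001, SE 0.0602, adjusted p = 5.38e-07). SLC6A9, a glycine transporter, was 1508, 1629.5 and 1490.1 in Parental and 519, 512 and 489 in DD (log2 fold change -1.60, SE 0.0809, adjusted p = 1.81e-07), and SLC7A5, the large neutral amino acid transporter, was 10291, 10327 and 9511 in Parental and 5971, 5961 and 6129.6 in DD (log2 fold change -0.74, SE 0.0622, adjusted p = 6.61e-06). In all 3 the DD libraries lay together and below every Parental library. Of 20 synthetases, 11 fell and 2 rose, with a median of -0.24. YARS, for tyrosine, was 9159, 9447 and 9960.3 in Parental and 6435, 6589 and 6146 in DD (log2 fold change -0.58, SE 0.0634, adjusted p = 4.81e-05), GARS, for glycine, was 5080.1, 5113 and 5777 in Parental and 3628, 3471 and 3469 in DD (log2 fold change -0.59, SE 0.0697, adjusted p = 7.95e-05), and IARS, for isoleucine, had a log2 fold change of -0.57 (SE 0.0589, adjusted p = 3.17e-05). MARS, for methionine, fell most, by 0.82 on the log2 scale, and lies in a run of chromosome 12 genes whose median was -0.48.

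**Figure D2:**
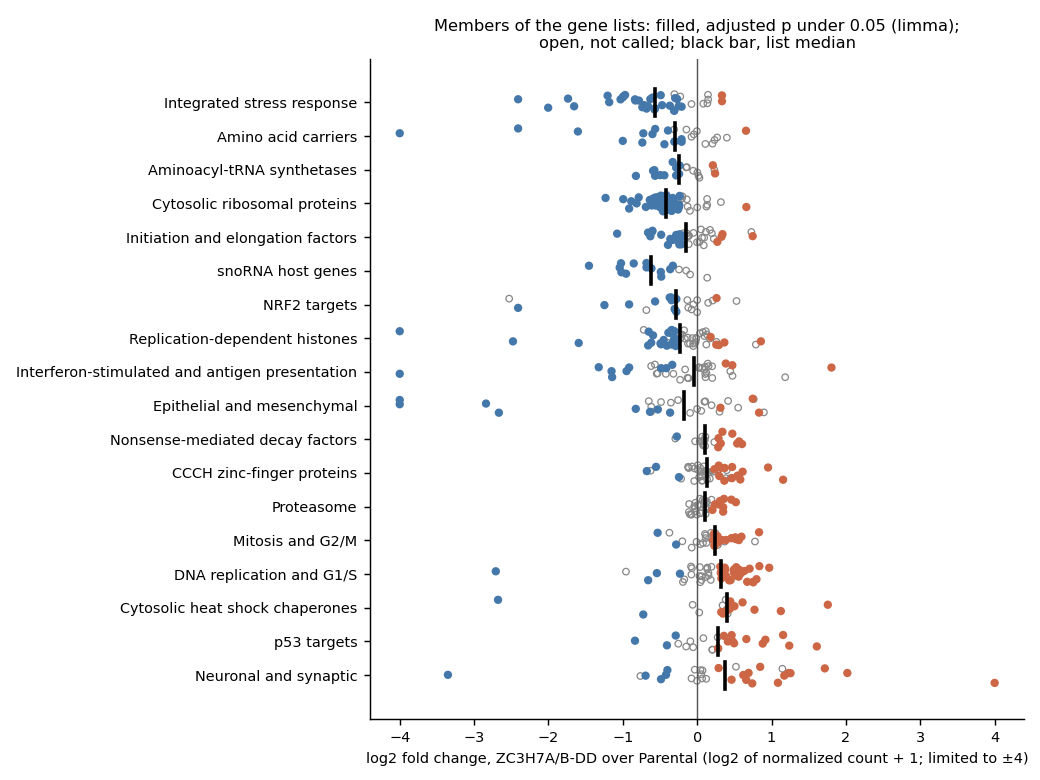
Each point is the log2 fold change (x axis, DD over Parental) of a tested member of a gene list. Filled points passed the test, open points did not, and black bars are list medians, from -0.62 for small nucleolar RNA host genes to 0.40 for heat shock chaperones.

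Transcripts of the translation apparatus were lower in most members of the ribosome and elongation lists. Of 83 cytosolic ribosomal protein genes tested, 71 fell and 1 rose, with a median log2 fold change of -0.42. The large subunit gave 43 of 51 lower and 0 higher, the small subunit 28 of 32 lower and 1 higher. RPL13A was 15838, 17065 and 14531 in Parental and 6559.6, 7183 and 6427 in DD (log2 fold change -1.23, SE 0.0751, adjusted p = 5.97e-07), the largest fall of the list. RPL11, RPS26 and RPL22 were next by adjusted p, at -0.99, -0.89 and -0.79, and each lies in a run of neighbouring genes that also moved down. Outside such runs 65 of 74 ribosomal protein genes fell, and the median there was also -0.42. The processed pseudogenes of these genes can take some of their reads. Mitochondrial ribosomal proteins did not share this pattern, with 11 higher and 10 lower of 77 and a median of -0.01. Both counts were near the shares of all genes, 14.7% higher and 14.8% lower. Of 8 elongation factor genes 6 fell and 0 rose. EEF2, the translocase of the ribosome, was 193790.0, 206331 and 196634 in Parental and 129189.8, 133046 and 123445 in DD (log2 fold change -0.63, SE 0.0792, adjusted p = 1.30e-04), and its kinase EEF2K had a log2 fold change of -0.66 (SE 0.0858, adjusted p = 1.65e-04). Initiation factors were mixed, with 10 of 34 lower and 4 higher, against 14.8% and 14.7% of all genes. EIF4B, a helicase cofactor, was 19594, 19283 and 20371 in Parental and 9275, 9363 and 9445 in DD (log2 fold change -1.08, SE 0.0595, adjusted p = 3.23e-07) and lies in the shifted part of chromosome 12, while the eIF3 subunit EIF3L was 12372, 12770.1 and 11180.2 in Parental and 7711, 8233 and 7968 in DD (log2 fold change -0.60, SE 0.0684, adjusted p = 6.10e-05). Of the 42 initiation and elongation factors together 16 fell, but 9 without DD replicate 1, 8 without DD replicate 3 and 10 without Parental replicate 2.

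Many mRNAs of the translation apparatus begin with a terminal oligopyrimidine tract, a cytosine at the cap followed by pyrimidines, through which growth signals control their translation. The starts of 6 genes that fell are shown from 30 bases before the RefSeq start to 20 bases into the transcript (GRCh38.p14), with the tract in capitals.
RPL13A (chr19:49487578-49487627, plus strand): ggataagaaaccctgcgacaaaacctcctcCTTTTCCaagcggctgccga
EEF2 (chr19:3985444-3985493, minus strand): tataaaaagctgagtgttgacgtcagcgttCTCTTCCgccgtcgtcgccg
EIF4B (chr12:53006426-53006475, plus strand): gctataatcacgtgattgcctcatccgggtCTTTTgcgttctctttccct
EEF1A1 (chr6:73521013-73521062, minus strand): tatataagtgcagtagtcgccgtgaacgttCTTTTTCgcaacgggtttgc
SNHG5 (chr6:85678714-85678763, minus strand): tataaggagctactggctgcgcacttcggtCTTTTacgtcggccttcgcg
ZFAS1 (chr20:49278612-49278661, plus strand): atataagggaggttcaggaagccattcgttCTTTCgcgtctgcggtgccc
A tract was counted where a cytosine within 5 bases of the start, on the sense strand only, was followed by at least 4 pyrimidines. It was found at a start of 56 of 67 ribosomal protein genes in the promoter table (83.6%), 18 of 35 initiation and elongation factors (51.4%), 11 of 19 small nucleolar RNA host genes (57.9%) and 16 of 69 mitochondrial ribosomal proteins (23.2%). Over all genes of the table the share was 25.2%. EEF1A1, the factor that brings tRNA to the ribosome, was 173634, 179718 and 160697 in Parental and 111674, 111162 and 114611 in DD (log2 fold change -0.61, SE 0.0792, adjusted p = 1.73e-04).

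Host genes of small nucleolar RNAs, whose spliced RNAs mostly carry no long reading frame and whose introns hold RNAs that guide ribosomal RNA modification, gave 13 of 17 lower and 0 higher, with a median of -0.62. SNHG7 was 2338, 2473 and 2507 in Parental and 1229, 1187 and 1179.6 in DD (log2 fold change -1.02, SE 0.0691, adjusted p = 1.30e-06), and ZFAS1 was 1978, 2009 and 1575 in Parental and 816, 952 and 920.5 in DD (log2 fold change -1.04, SE 0.104, adjusted p = 2.36e-05). GAS5, which is known as a target of nonsense-mediated decay, had 1190.1, 1240.0 and 1166 in Parental and 651, 739 and 605 in DD (log2 fold change -0.85, SE 0.0916, adjusted p = 4.01e-05). SNHG3 fell most (-1.46) and lies in the shifted start of chromosome 1. The count was 13 whichever of the 6 libraries was left out. Of the 20 known targets of nonsense-mediated decay, a list that includes ATF4, ZFAS1 and GAS5, 7 fell and 1 rose, with a median of -0.09. The decay factors themselves gave 8 higher and 1 lower of 21, with a median of 0.11. EIF4A3, a core of the exon junction complex, was 2858, 3032 and 3514 in Parental and 4944, 4831 and 4469.8 in DD (log2 fold change 0.60, SE 0.0828, adjusted p = 2.44e-04), and SMG5 was the factor that fell (log2 fold change -0.27, SE 0.0621, adjusted p = 0.00612). Only 4 decay factors were higher without DD replicate 1 or Parental replicate 2, and 5 without DD replicate 2. With Parental replicate 3 left out, 10 were higher.

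Most DNA replication genes rose, while CCND1 and CCND2 fell. Of 30 replication genes 21 rose and 1 fell, with a median of 0.47, against 14.7% of all genes higher. The number that rose was 15 without DD replicate 1, 17 without DD replicate 2 and 22 without Parental replicate 3. MCM6, a subunit of the replicative helicase, was 3588, 3523 and 4899.5 in Parental and 7991, 7749.6 and 7497 in DD (log2 fold change 0.97, SE 0.108, adjusted p = 5.28e-05), with Parental replicate 3 the highest of its group. Of 18 regulators of the G1/S step 5 rose and 3 fell. CCND1, cyclin D1, was 5236, 5263 and 5379 in Parental and 687, 909.8 and 847 in DD (log2 fold change -2.71, SE 0.0954, adjusted p = 1.13e-08), a 6.50-fold fall and the largest of the list. CCND2, cyclin D2, was 16171, 16091 and 16542 in Parental and 9546, 10514 and 10886 in DD (log2 fold change -0.66, SE 0.0668, adjusted p = 2.66e-05). CDK4, the kinase these cyclins activate, had a log2 fold change of -0.54 (SE 0.0633, adjusted p = 7.63e-05) and lies in the shifted part of chromosome 12. Of 34 genes of mitosis and G2/M, 16 rose and 2 fell, with a median of 0.23. CKAP2, a spindle protein in a shifted run of chromosome 13, had a log2 fold change of 0.83 (SE 0.0710, adjusted p = 7.26e-06), the checkpoint kinase TTK 0.59 (SE 0.0880, adjusted p = 4.17e-04) and the kinesin KIF11 0.52 (SE 0.0809, adjusted p = 5.79e-04), while the phosphatase CDC25B fell, at -0.53 (SE 0.0662, adjusted p = 1.21e-04). The count of mitotic genes that rose was 7 without DD replicate 1, 9 without DD replicate 2 or Parental replicate 2, and 23 without Parental replicate 3.

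Targets of p53 were higher on the whole, with 12 of 24 higher, 3 lower and a median of 0.28. CDKN1A, the inhibitor p21 of cyclin-dependent kinases, was 1288, 1383 and 1235 in Parental and 4064, 3973 and 3872 in DD, about 3.05-fold higher with no overlap (log2 fold change 1.61, SE 0.0698, adjusted p = 5.33e-08). BAX, which opens mitochondria in apoptosis, was 1483, 1548 and 1771 in Parental and 3973, 3758 and 3581 in DD (log2 fold change 1.24, SE 0.0808, adjusted p = 9.79e-07). PHLDA3, an inhibitor of AKT, was 815, 762 and 754 in Parental and 1716, 1720.0 and 1755 in DD (log2 fold change 1.16, SE 0.0743, adjusted p = 8.94e-07), and the DNA repair gene DDB2 had a log2 fold change of 0.88 (SE 0.0822, adjusted p = 1.44e-05). HEK293 cells carry adenoviral genes that bind p53. MYC, a transcription factor that drives growth and ribosome production, was 7376, 8389 and 8590.0 in Parental and 3039, 3608 and 3259 in DD (log2 fold change -1.30, SE 0.0820, adjusted p = 8.02e-07). In the list of AP-1 and immediate early genes, 7 of 27 fell and 4 rose, with a median of -0.11, against 14.8% lower and 14.7% higher of all genes. Of those that fell, SPRY4, a feedback inhibitor of growth factor signalling, was 404, 402 and 455 in Parental and 100.4, 52.1 and 71.6 in DD (log2 fold change -2.52, SE 0.207, adjusted p = 5.51e-06), and the phosphatases DUSP5 and DUSP4 fell by 0.79 and 0.65 on the log2 scale. Genes of ribosome biogenesis gave 5 higher and 3 lower of 36, shares no larger than those of all genes, with 15 higher and 2 lower without Parental replicate 3, and 0 higher without DD replicate 1, DD replicate 2, Parental replicate 1 or Parental replicate 2.

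Chaperone genes of the cytosol were higher. Of 19 tested, 11 rose and 2 fell, with a median of 0.40. The number that rose was 8 without DD replicate 1 and 15 without Parental replicate 3. HSPH1, an exchange factor of HSP70, was 1778, 1765 and 2303 in Parental and 4422, 4169.8 and 4069.5 in DD (log2 fold change 1.12, SE 0.0977, adjusted p = 8.32e-06), and DNAJB1, an HSP40, was 4074, 4516 and 4540.1 in Parental and 7482, 7475 and 7417 in DD (log2 fold change 0.77, SE 0.0651, adjusted p = 6.69e-06). HSF1, the transcription factor that drives them, was 2467, 2685 and 2595 in Parental and 3732, 3691 and 3537 in DD (log2 fold change 0.50, SE 0.0656, adjusted p = 1.75e-04) and lies in the shifted end of chromosome 8. In the ER chaperone list, 4 of 18 rose and 3 fell, where 14.7% of all genes were higher and 14.8% lower. Of 33 proteasome genes 9 rose and 0 fell, with a median of 0.10. The number that rose was 5 without DD replicate 1, DD replicate 2, Parental replicate 1 or Parental replicate 2, and 13 without Parental replicate 3. The assembly chaperone PSMD10 had a log2 fold change of 0.52 (SE 0.0832, adjusted p = 7.08e-04). Targets of NRF2, which guards against oxidants, gave 11 lower and 1 higher of 23 (median -0.28). HMOX1, the heme oxygenase, was 204, 195 and 255 in Parental and 87.1, 107 and 80.0 in DD (log2 fold change -1.25, SE 0.174, adjusted p = 2.79e-04). SLC7A11, described above, is in this list as well.

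Replication-dependent histone genes, whose mRNAs normally end without a poly(A) tail and which poly(A) RNA-seq measures only in part, gave 22 lower and 5 higher of 54 tested, with a median of -0.23. HIST1H2BD was 12492, 12609.8 and 12657 in Parental and 8302, 8074 and 7549 in DD (log2 fold change -0.66, SE 0.0622, adjusted p = 1.56e-05), and HIST3H2BB had a log2 fold change of -0.62 (SE 0.0640, adjusted p = 3.05e-05). Nuclear genes of oxidative phosphorylation gave 15 lower and 5 higher of 79, beside 14.8% and 14.7% of all genes. Outside shifted runs 9 and 4 of 72 were called, beside 12.9% lower and 14.5% higher of all genes there, so the share lower there was near that of all genes. Without Parental replicate 3, 22 of 79 were lower and 6 higher, beside 3239 lower and 3564 higher of 18081 over all genes. ATP5G3, a subunit of the ATP synthase ring, was 4352, 4664 and 4287 in Parental and 2248, 2305 and 2405 in DD (log2 fold change -0.93, SE 0.0664, adjusted p = 1.90e-06). Of 15 mitochondrially encoded RNAs 5 were lower and 0 higher, and 11 were lower without Parental replicate 3 and 1 to 3 without DD replicate 1, DD replicate 3, Parental replicate 1 or Parental replicate 2. Without DD replicate 3, 2 were called higher and 1 lower, with a median of -0.27. Parental replicate 3 was the library with the lowest Parental values of MT-ND4: 38516, 35273 and 25461 in Parental and 24271, 24327 and 19208 in DD (log2 fold change -0.54, SE 0.138, adjusted p = 0.0122).

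Most epithelial genes were lower and most genes of vesicles and the neuronal cytoskeleton were higher. Of 12 epithelial genes tested, 7 fell and 0 rose, with a median of -0.64. Without any one of the Parental libraries 9 were tested and 4 fell, and without Parental replicate 3 the median was -0.52 and 1 rose. Besides KRT19, the keratin KRT8 was 2416, 3013 and 3436 in Parental and 367, 499.9 and 369 in DD (log2 fold change -2.84, SE 0.141, adjusted p = 1.78e-07) and its partner KRT18 had a log2 fold change of -0.83 (SE 0.0867, adjusted p = 3.43e-05), both in the shifted part of chromosome 12. CDH1, E-cadherin, was already low in Parental and was 79.9, 91.2 and 91.5 in Parental and 0, 4.74 and 4.21 in DD (log2 fold change -4.83, SE 0.608, adjusted p = 1.31e-04). EPCAM, an epithelial adhesion protein, was 1439, 1368 and 1100.2 in Parental and 862, 791 and 849 in DD (log2 fold change -0.63, SE 0.103, adjusted p = 7.68e-04). KRT5, KRT6A, KRT14 and KRT17, which mark stratified epithelium, were at 0 in all 6 libraries, and the 8 markers of keratin epithelium summed to 1277 to 1594 in Parental and 851 to 910 in DD. In bulk RNA, fewer cells of a type and less RNA per cell cannot be told apart. Of 16 mesenchymal genes 3 rose and 1 fell, where 14.7% of all genes were higher and 14.8% lower. Fibronectin, FN1, was 4083, 4159 and 4004 in Parental and 6949.7, 6920.4 and 6688 in DD (log2 fold change 0.75, SE 0.0598, adjusted p = 4.74e-06). Over epithelial and mesenchymal genes together 8 of 28 fell, and 5 without Parental replicate 1 or Parental replicate 2, with KRT19 and CDH1 again untested there.

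Of 30 neuronal and synaptic genes 14 rose and 5 fell, with a median of 0.38. Those of the cytoskeleton and of vesicles gave 12 higher and 3 lower of 18 (median 0.79). Those of adhesion and transcription gave 2 higher and 2 lower of 12, near the shares of all genes (14.7% higher and 14.8% lower). Summed over the 18 genes of the cytoskeleton and vesicles, counts were nevertheless lower in DD, at 36076 to 36663 against 38486 to 39674 in Parental. The abundant neurofilament gene NEFL was 5344 to 6188 in Parental and 3802 to 4213 in DD. SYP, a synaptic vesicle membrane protein, was 544, 661 and 582 in Parental and 1299, 1199 and 1287 in DD (log2 fold change 1.09, SE 0.0925, adjusted p = 7.17e-06), and INA, a neuronal intermediate filament, was 1263, 1287 and 1207 in Parental and 2209.9, 2094 and 1978 in DD (log2 fold change 0.74, SE 0.0735, adjusted p = 2.33e-05). TENM1, a teneurin adhesion protein, went the other way, at 2218, 1429.9 and 1135 in Parental and 157, 130.3 and 162 in DD (log2 fold change -3.35, SE 0.197, adjusted p = 4.85e-07). The list's median was between 0.18 and 0.24 without any one DD library. Only 28 genes passed the filter there in place of 30. SYT1, at 10 or more only in DD and the largest rise of the list, was among those left out.

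Genes of matrix and TGF-beta signals changed in both directions. Of 18 collagens 7 rose and 2 fell, and of 32 other matrix genes 5 rose and 12 fell. FBN1, fibrillin, was 735, 688 and 656 in Parental and 2045, 1940.4 and 1862 in DD (log2 fold change 1.49, SE 0.0796, adjusted p = 2.79e-07), while AGRN, agrin, in the shifted start of chromosome 1, was 5793, 6353 and 5379 in Parental and 2331, 2483 and 2454 in DD (log2 fold change -1.27, SE 0.0738, adjusted p = 4.74e-07). Of 13 ligands and binding proteins of the TGF-beta family 7 fell and 0 rose. LTBP2, which binds microfibrils, was 253, 281 and 220.0 in Parental and 30.3, 16.6 and 29.5 in DD (log2 fold change -3.29, SE 0.248, adjusted p = 3.04e-06). Of 16 receptors and SMAD genes 5 rose and 3 fell, with a median of -0.01. One that fell was TGFBR2, the type II receptor, at 822, 722 and 756 in Parental and 377, 434 and 389.7 in DD (log2 fold change -0.94, SE 0.0988, adjusted p = 3.54e-05), and of 8 target genes, 3 of which fell and 1 rose, ID4 had a log2 fold change of -0.96 (SE 0.0744, adjusted p = 3.81e-06). Interferon-stimulated and antigen presentation genes gave 9 lower and 3 higher of 38, beside 14.8% and 14.7% of all genes, and 5 lower without Parental replicate 2. Beyond OAS3, NLRC5, the activator of MHC class I genes, was 333, 345 and 307 in Parental and 148, 142 and 152 in DD (log2 fold change -1.15, SE 0.124, adjusted p = 4.17e-05), and the peptide transporter TAP2 was 2502, 2635 and 2370.2 in Parental and 1269, 1348 and 1363 in DD (log2 fold change -0.91, SE 0.0725, adjusted p = 4.46e-06).

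Members of the repression and decay machinery were called in both directions, where 14.7% of all genes were higher and 14.8% lower. Of 10 genes of translational repression by GIGYF and 4EHP, 3 rose and 3 fell, with a median of 0.01, and 5 rose and 4 fell without Parental replicate 3, and 1 rose without DD replicate 1. EIF4EBP1, which sequesters the cap-binding protein eIF4E, was 5446, 5384 and 4710.0 in Parental and 2613, 2608 and 2620.4 in DD (log2 fold change -0.98, SE 0.0714, adjusted p = 2.26e-06). EIF4E2, which encodes 4EHP, was 2314, 2241 and 2298 in Parental and 1557, 1756 and 1765 in DD (log2 fold change -0.43, SE 0.0735, adjusted p = 0.001) and lies in the shifted end of chromosome 2. The helicase DDX6 was 7176, 6905 and 7398 in Parental and 9267, 8901 and 8904 in DD (log2 fold change 0.33, SE 0.0609, adjusted p = 0.00164). Of 23 genes of CCR4-NOT and tail shortening 3 rose and 4 fell, near the shares of all genes, and 7 rose and 6 fell without Parental replicate 3. The 4 that fell were 1 without DD replicate 1, and 2 without DD replicate 2, DD replicate 3 or Parental replicate 2. The deadenylase PAN2, in the shifted part of chromosome 12, had a log2 fold change of -1.17 (SE 0.0936, adjusted p = 4.66e-06), and the antiproliferative adaptor BTG3 0.66 (SE 0.0935, adjusted p = 2.99e-04). Of 34 genes of decapping and exonucleases 11 rose and 4 fell, and 6 rose without DD replicate 1. DCP1A, a decapping cofactor, was 2074, 1930.3 and 2085 in Parental and 1127, 1089.8 and 1182 in DD (log2 fold change -0.84, SE 0.0732, adjusted p = 8.47e-06), and DIS3, the exosome nuclease, in the same shifted run of chromosome 13 as CKAP2, was 1123, 1040.3 and 1325 in Parental and 2341, 2132 and 1942 in DD (log2 fold change 0.88, SE 0.1004, adjusted p = 6.15e-05). Other CCCH genes rose more often than they fell, 14 against 3 of 47, with a median of 0.13. ZC3H3, in the shifted end of chromosome 8, had a log2 fold change of 1.16 (SE 0.148, adjusted p = 1.49e-04) and ZC3H8 0.95 (SE 0.144, adjusted p = 4.88e-04). This count was 9 without DD replicate 1 or DD replicate 2, 8 without Parental replicate 2 and 22 without Parental replicate 3. PABPC1, the main poly(A)-binding protein, was 30505, 29275 and 26166 in Parental and 22201, 21934 and 22633 in DD (log2 fold change -0.36, SE 0.0715, adjusted p = 0.00272).

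Codon use at the third base was next set against the fold changes. Across 13209 genes with a complete coding sequence, the log2 fold change in DD had a Spearman rho of -0.036 with the share of codons ending in G or C. Over the 9 pairs of a DD and a Parental library, rho ran from -0.202 to 0.156, and without Parental replicate 3 it was 0.028. The sign thus depended on which libraries were paired. In 5 equal groups of genes, from the lowest share of such codons (22.3% to 41.7%) to the highest (76.1% to 100%), median log2 fold changes were 0.09, 0.04, 0.02, 0.03 and 0.04. In the lowest group 20.5% of genes rose and 10.0% fell, and in the highest 20.6% rose and 18.1% fell. Measured against their own controls, the overexpressions had a rho of 0.524 for ZC3H7A and 0.459 for ZC3H7B over 13577 genes. Their medians ran from -0.59 in the lowest group to 0.38 in the highest for ZC3H7A, and from -0.49 to 0.24 for ZC3H7B. These are correlations across genes, which share libraries and are not replicates, and codon use also goes with the G+C share of the transcript, on which Parental replicate 3 stood apart. The transcript's G+C share had a rho of 0.011 in DD, between -0.188 and 0.202 in the 9 pairs and 0.083 without Parental replicate 3. Coding length had a rho of 0.101, between 0.0074 and 0.160 in the 9 pairs.

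**Figure D3:**
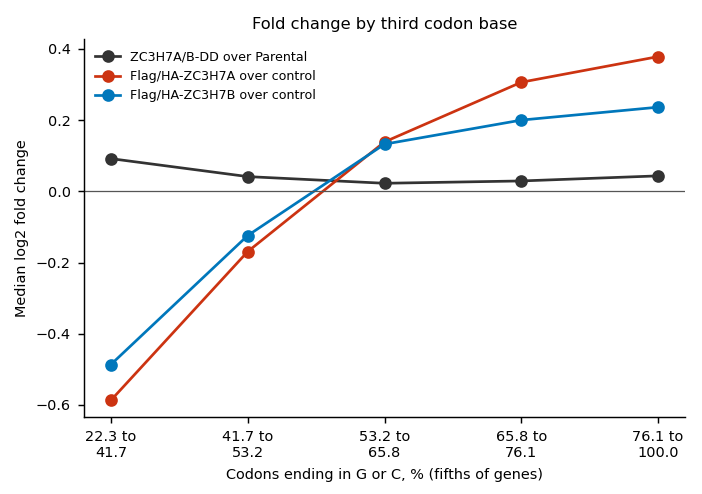
Median log2 fold change (y axis) in 5 equal groups of genes by the percentage of codons ending in G or C (x axis). The DD line stays between 0.02 and 0.09, while the overexpression lines run from -0.59 to 0.38 and from -0.49 to 0.24.

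Neighbouring genes moved together in a few parts of the genome. In genome order, genes that averaged 100 or more were split into 303 runs of about 40, and 221 runs had a median log2 fold change within 0.1 of 0. The median was at least 0.2 from 0 in 24 runs, 17 of them lower and 7 higher. In these shifted runs 58.4% of tested genes were called, against 27.4% elsewhere. At the start of chromosome 1, from WASH7P to SNORA73B, 192 of 246 genes fell, with a median of -0.48, against 0.06 over the rest of the chromosome. In the middle of chromosome 12, from ASIC1 to SLC8B1, 187 of 326 fell (median -0.36), and at the ends of chromosomes 2 and 4 42 of 80 and 25 of 38 fell (medians -0.29 and -0.56). Higher runs lay at the end of chromosome 8, where 64 of 78 genes rose (median 0.63), at the end of chromosome 13 (26 of 40, median 0.40) and in the middle of the X chromosome (18 of 38, median 0.32). Further higher runs lay inside chromosome 13 (19 of 40, median 0.27), on chromosome 19 (22 of 39, median 0.26) and near the end of chromosome 9 (17 of 40, median 0.23). With ZC3H7A and ZC3H7B over their own control, the end of chromosome 8 had medians of 0.92 and 0.23. At the start of chromosome 1 they were -0.29 and 0.19, and at the end of chromosome 2 -0.35 and 0.11. The end of chromosome 4 had -0.26 and -0.15, and the middle of chromosome 12 -0.25 and -0.044. The end of chromosome 13 had 0.066 and 0.028, and the middle of the X chromosome -0.076 and -0.034. DNA copy number was not measured in these files, and its part in these shifts was not tested. Outside the shifted runs 2513 genes were higher and 2233 lower of 17292 (14.5% and 12.9%). There, 5 epithelial and mesenchymal genes fell in place of 8.

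**Figure D4:**
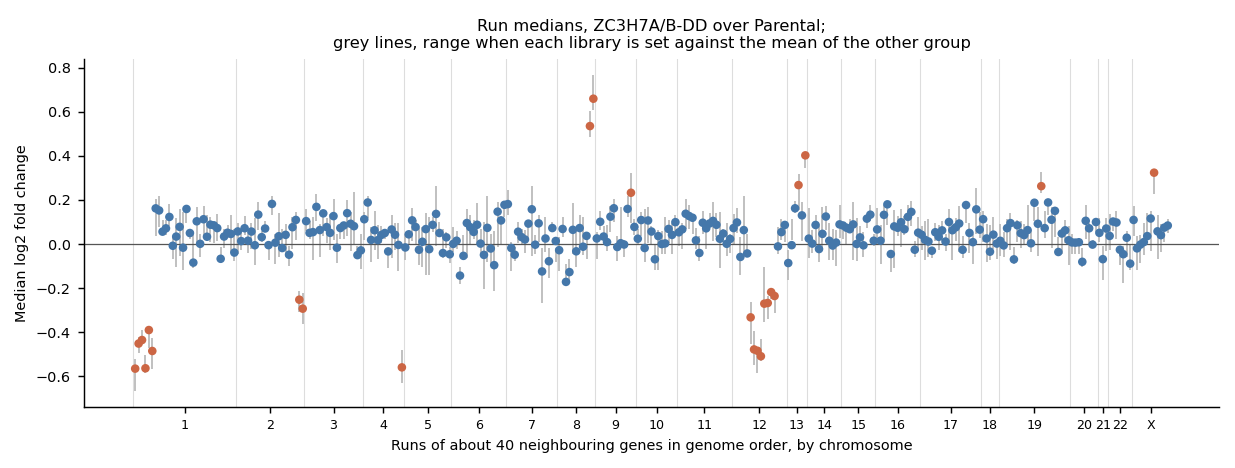
Median log2 fold change (y axis, DD over Parental) of each run of about 40 neighbouring genes, in genome order (x axis, chromosomes 1 to X). Grey lines show the range when each library is set against the mean of the other group; red points are the 24 runs with a median at least 0.2 from 0, lowest at the start of chromosome 1 and highest at the end of chromosome 8.

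The depletion was last set beside the overexpressions, whose controls are separate libraries made with another protocol. In that experiment 34.7% of tested genes were higher and 41.2% lower with ZC3H7A, and 32.0% higher and 37.6% lower with ZC3H7B. Both overexpressions share the Flag/HA-control libraries. Of 16165 genes tested in both experiments, 1465 were called in DD and in both overexpressions with the opposite sign (750 lower and 715 higher in DD), and 1660 with the same sign (687 and 973). Genes of the same sign were thus no fewer than those of opposite sign. These counts include genes of the shifted runs, some of which moved the same way in the overexpressions, such as the end of chromosome 8. The part of these runs in the counts was not tested. Of 2652 genes higher in DD, 48.2% were higher and 35.2% lower with ZC3H7A, where the background over the genes tested in both was 36.9% and 40.5%. Of 2554 genes lower in DD, 36.8% were higher and 40.9% lower with ZC3H7A, close to that background. With ZC3H7B the background was 34.2% higher and 37.4% lower. Genes higher in DD were higher in 41.7% and lower in 33.9% with ZC3H7B, and genes lower in DD were higher in 39.9% and lower in 33.2%. Both sets were thus above the background in the share higher with ZC3H7B, and this was not tested.

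In some of the lists, most called members went one way in DD and most went the other way in each overexpression. These counts were taken within each comparison, and calls were not matched member by member. Of 39 genes of the integrated stress response, 30 rose and 3 fell with ZC3H7A (median 0.60), and 33 rose and 4 fell with ZC3H7B (median 0.55). CHAC1, which fell in DD, had log2 fold changes of 1.81 and 1.96 with ZC3H7A and ZC3H7B. PYCR1 had 1.25 and 1.01, and ATF4 0.73 and 0.54. SLC7A11, which had the lowest value of the list in DD, is an exception, at -0.19 and -0.37. Of the 83 cytosolic ribosomal protein genes 65 rose with ZC3H7A and 67 with ZC3H7B, and 6 and 4 fell. Of 24 targets of p53, 16 fell and 4 rose with ZC3H7A, and 14 fell and 6 rose with ZC3H7B. CDKN1A had -1.21 and -0.92, but BAX rose in all 3 comparisons (0.46 and 0.61). DNA replication and G1/S genes were instead called mostly higher in all 3 comparisons, with 26 of 48 higher in DD, 25 with ZC3H7A and 36 with ZC3H7B. Of 20 synthetases 12 and 14 rose with the overexpressions, and 6 and 1 fell.

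**Figure D5:**
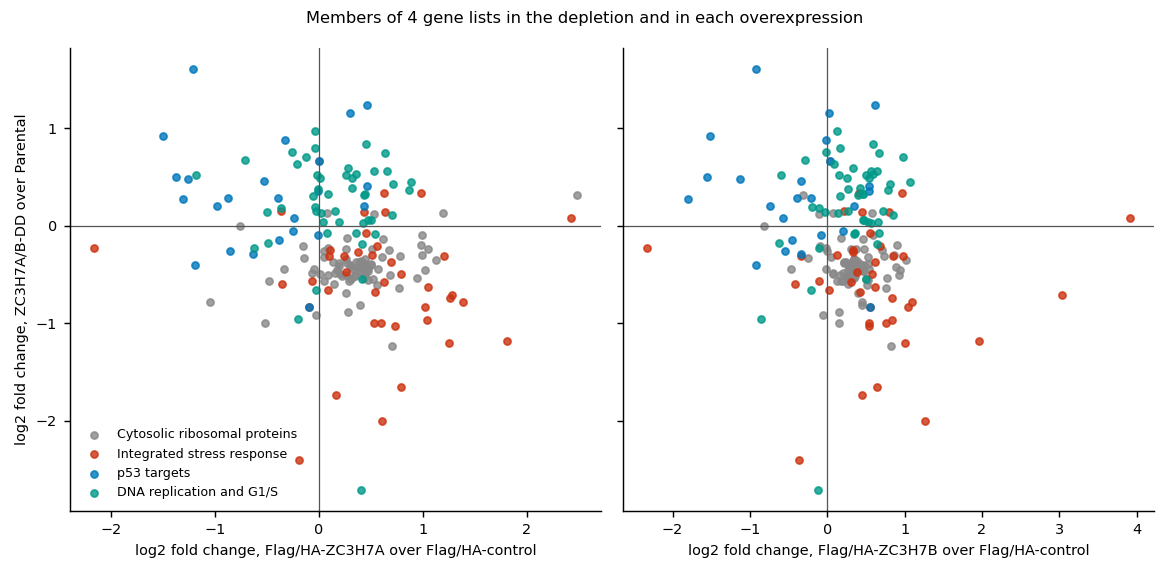
Log2 fold change in DD over Parental (y axis) against that with Flag/HA-ZC3H7A (left) or Flag/HA-ZC3H7B (right) over Flag/HA-control (x axes) for members of 4 lists. Most genes of the integrated stress response and the ribosome lie at the lower right, and more p53 targets lie at the upper left than at the lower right.

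The single genes named next had the largest changes of opposite sign, and those after them the largest of the same sign. DLGAP1 rose in DD and had log2 fold changes of -4.68 and -5.27 with ZC3H7A and ZC3H7B, and SYT1 -1.32 and -3.34. CGREF1 fell in DD and had 2.67 and 4.48. The zinc-finger gene ZNF677 was 455, 417 and 392 in Parental and 184, 194 and 213 in DD (log2 fold change -1.09, SE 0.120, adjusted p = 4.61e-05), against 3.95 and 3.62 in the overexpressions. SPINT1, a protease inhibitor of epithelia, was 182, 182 and 168 in Parental and 49.2, 54.5 and 65.3 in DD, against 2.51 and 1.13. A catalytic subunit of protein kinase A, PRKACB, rose in DD from 759, 841 and 634 to 1786, 1552 and 1734 and had -1.30 and -1.33. SLC6A9, the glycine transporter above, had 1.51 and 1.30. Others moved the same way in all 3 comparisons. TENM1 fell also with ZC3H7A and ZC3H7B (-5.36 and -7.39), as did the glutathione-cleaving GGT1, at 159.9, 214 and 207 in Parental and 26.5, 37.9 and 46.3 in DD (-2.35 and -2.54). NALCN, a sodium leak channel in the shifted end of chromosome 13, was 82.2, 71.5 and 58.8 in Parental and 256, 282 and 379 in DD and rose with both (6.61 and 3.84). The glycosyltransferase B3GALT1 had 2.80 and 2.85 beside 2.13 in DD. TMEM35, CPLX2 and FAM101A, among the largest rises in DD, rose with both as well, by 2.81 and 1.76, 2.02 and 1.64, and 2.62 and 1.77.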

How the data were processed

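The deposited table holds normalized counts of 55773 genes in 15 libraries. The genome build hg19 and the tools DESeq2, HTSeq and STAR 2.7.10b are named in the submitters' processing notes; the annotation, the strand setting and each tool's settings are not given in the sources used here. The values were treated as a signal that the authors scaled by a factor per library: dividing by the value of 1 read gave whole numbers, with a tolerance of 0.01, for 100% of them, so reads were recovered. Intervals and floors cover counting error only.

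DD and Parental were fitted on their 6 libraries with limma 3.58.1 (R 4.3.3; log2 scale with a pseudocount of 1, mean-variance trend, two-sided, Benjamini-Hochberg adjusted over all 18494 genes, threshold 0.05). The 9 overexpression libraries had a fit of their own. edgeR 4.0.16 and DESeq2 1.42.0 on recovered reads, other scalings, filters and pseudocounts, a replicate block and left-out libraries were alternatives. The fit was also run on simulated counts with the same spread in every library. In the data the spread was 10.4% in Parental and 4.82% in DD, so that run does not check the calls made here.

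Same-numbered libraries of the 2 groups did not deviate together (r = -0.01, -0.05 and -0.27 across 12935 genes), and the labels tie them to nothing shared. Differently numbered pairs ran from r = -0.31 (Parental replicate 1 with DD replicate 2) to 0.32 (Parental replicate 1 with DD replicate 3). The source of these correlations was not tested.

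Names were matched to GENCODE 29 on GRCh38 (34240 current and 1244 older symbols; 20261 matched none and 28 were date-like or repeated), used for type, chromosome, gene order and coding sequence. Promoters are from RefSeq (GRCh38.p14), and no position in hg19 is given.

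The members and gene lists were chosen with earlier results of these data known, so lists are described by counts and medians only. Named genes are ZC3H7A and ZC3H7B, the 15 largest rises and falls (called, without overlap, and averaging 100 or more in the higher group), for each list up to 4 called members by lowest adjusted p, all members of lists with up to 8 tested, and 8 genes each of opposed and same sign; some of these are not reported here. ASNS, CDK4, CEBPG, DDIT3, EEF1A1, MTHFD2, SESN2, SLC1A5 and TRIB3 were chosen after their values were seen.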

Additional observations from a re-analysis of the deposited data

How the results depend on the processing

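Genes called by other settings were 2618 higher and 2861 lower with edgeR and 2034 and 2435 with DESeq2, and 3969 and 3657 in the fit on all 15 libraries (7626 in all); leaving out a library gave 3563 to 6803 in all, 1561 to 3564 higher and 1916 to 3239 lower. The replicate block, on numbers that do not pair the libraries, called 2168 higher and 2374 lower, and no same-numbered pair correlated positively; under it 9 mitotic and 5 proteasome genes rose. DESeq2 called 10 mitotic genes higher, and the fit on all 15 libraries called 12 histone genes lower. Less the median of each gene's run, an alternative chosen after seeing the data, list medians were -0.50 for the integrated stress response, -0.21 for translation factors, 0.17 for mitosis, -0.17 for NRF2 targets, 0.033 for CCCH genes and 0.00016 for the proteasome. Outside shifted runs, also chosen after seeing the data, the epithelial and mesenchymal median was 0.027, with 5 members lower, and the interferon median 0.026, against 0.021 with no filter on low values. With values of at least 50 the neuronal median was 0.20. The cause of these moves was not tested.

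Leaving out a library gave ranges of members called of 8 to 19 for translation factors, 4 to 10 for decay factors, 7 to 23 for mitosis, 5 to 8 for epithelial and mesenchymal genes, 5 to 13 for the proteasome, 8 to 22 for CCCH genes and 5 to 9 for interferon genes. Medians ranged from 0.19 to 0.24 for mitosis, 0.34 to 0.54 for chaperones, 0.18 to 0.36 for neuronal genes, -0.19 to 0.025 for epithelial and mesenchymal genes, 0.095 to 0.22 for CCCH genes and -0.15 to -0.023 for interferon genes. Of 214 named genes, 17 lost their call under at least 1 alternative. The 3 with a change of sign were uncalled: COL1A1 (-0.036 without Parental replicate 1; -0.036 to 0.23 over left-out libraries), PDGFRA (0.013 without Parental replicate 2; -0.29 to 0.013) and CD79A (-0.31, -0.036 and -0.27 without DD replicate 2, DD replicate 3 and Parental replicate 1; -0.31 to 0.48). Genes near the minimum value of 10 rest on few reads, and their fold changes on the pseudocount. The filter was applied again in each fit with a library left out. Genes that passed it in only 1 group dropped out when a library of that group was left out. List counts and medians changed with them.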

Other observations

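Further gene groups were measured that belong to no list described above. Beside the counts given here, 14.7% of all tested genes were higher and 14.8% lower. Of 17 glycolysis genes 3 rose and 2 fell, near those shares, and 8 rose without Parental replicate 3. Of 15 hypoxia genes 2 rose and 3 fell. NDRG1, a hypoxia and stress gene, was 6173, 6749.9 and 6690.3 in Parental and 2644, 3170.0 and 2919 in DD (log2 fold change -1.17, SE 0.0773, adjusted p = 1.05e-06), although its neighbours at the end of chromosome 8 had a median of 0.54. VEGFA, the angiogenic growth factor, was 2211, 2135 and 2141 in Parental and 1392, 1467 and 1523 in DD (log2 fold change -0.57, SE 0.0697, adjusted p = 1.10e-04). The glycolytic enzyme ENO1 was 49873, 57714 and 72162 in Parental and 35845, 36571 and 32691 in DD (log2 fold change -0.76, SE 0.114, adjusted p = 4.58e-04) in the shifted start of chromosome 1. Of 24 cholesterol synthesis genes 6 rose and 1 fell.

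Among factors of embryonic and nephron progenitors, 6 of 22 fell and 2 rose. GATA3, a zinc-finger transcription factor, was 593, 661 and 706 in Parental and 203, 232 and 225 in DD (log2 fold change -1.56, SE 0.112, adjusted p = 2.08e-06). LIN28B, which blocks maturation of let-7 microRNAs, was 2633, 2381 and 2004 in Parental and 1195, 1161 and 1199 in DD (log2 fold change -0.97, SE 0.0945, adjusted p = 1.96e-05), and HMGA2, a chromatin protein that let-7 represses, was 4376, 4132 and 3860.4 in Parental and 1897, 1777 and 2129.6 in DD (log2 fold change -1.09, SE 0.0816, adjusted p = 2.82e-06) in the shifted part of chromosome 12. Of 37 HOX genes 8 rose and 9 fell. The HOXC cluster lies in the shifted part of chromosome 12, where HOXC4 had a log2 fold change of -0.89 (SE 0.0821, adjusted p = 1.37e-05), and HOXB5 on chromosome 17 had 0.51 (SE 0.0859, adjusted p = 9.32e-04). Of 39 WNT pathway genes 9 rose and 8 fell, and the receptors FZD8 and FZD4 had 0.64 (SE 0.0660, adjusted p = 2.93e-05) and -0.72 (SE 0.0841, adjusted p = 7.73e-05). Of 22 Notch genes 5 rose and 6 fell, with NOTCH3 at 2045, 2054 and 1758 in Parental and 2882, 2976 and 3046 in DD (log2 fold change 0.61, SE 0.0770, adjusted p = 1.36e-04).

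Enzymes that modify the wobble base of tRNA gave 5 higher and 4 lower of 30, near the shares of all genes. ADAT2, which makes inosine there, was 1055, 863 and 773 in Parental and 511, 571 and 549.8 in DD (log2 fold change -0.71, SE 0.114, adjusted p = 7.39e-04), and the Elongator subunit ELP3 was 1627, 1632 and 1817 in Parental and 2312, 2327 and 2136 in DD (log2 fold change 0.42, SE 0.0749, adjusted p = 0.00149). Of 23 genes of ribosome collision and rescue 3 rose and 4 fell, also near those shares. GNB2L1, the ribosomal scaffold RACK1, was 70644, 75523 and 67528 in Parental and 48347, 48464 and 46174 in DD (log2 fold change -0.58, SE 0.0718, adjusted p = 1.18e-04), and ASCC3, a helicase that splits stalled ribosomes, was 2398, 2211 and 2329 in Parental and 3058, 2755 and 3058 in DD (log2 fold change 0.35, SE 0.0712, adjusted p = 0.00302).

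Of 20 genes of the microRNA machinery 3 rose and 2 fell, again near the shares of all genes, and AGO1 had a log2 fold change of -0.37 (SE 0.0625, adjusted p = 9.95e-04). Of 28 Hippo-YAP genes 7 rose and 5 fell, with the YAP target CYR61 at 522, 542 and 525 in Parental and 875, 924 and 954 in DD (log2 fold change 0.79, SE 0.0843, adjusted p = 3.86e-05).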
